A study of Homo sapiens with 4 samples.

Results

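The E2F transcription factors and the retinoblastoma (RB) pocket proteins were followed as one group of 10 genes in SW1990 cells, an established human pancreatic cancer line. The group was chosen by gene name (E2F1 to E2F8, RB1 and RBL1) from 58735 annotated genes, and all 10 members were among the 15721 genes that passed the expression filter. Cells received vehicle or gomisin G (10 µM), a plant lignan known from Schisandra, for 24 h, with 2 RNA-seq libraries per group and 4 in all. The deposited values are read counts per gene. Both groups are the same line, which is the only model in the series, and the controls differ from the treated cells by the compound alone as far as the labels say. Whether the replicates were grown apart is not in the labels. The p-values therefore cover the spread between these libraries, which may be technical.

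E2F factors bind promoters of genes needed for DNA synthesis and cell division. E2F1, E2F2 and E2F3 are known as activators, and RB, the product of RB1, binds them and blocks their activity until cyclin-dependent kinases (CDKs) phosphorylate it. E2F4 and E2F5 act mainly as repressors together with the pocket proteins p107 (gene RBL1) and p130 (gene RBL2). E2F6 represses through Polycomb proteins and lacks the pocket-binding part. E2F7 and E2F8 are atypical, since they bind DNA without a DP partner and repress E2F targets late in S phase. Several of these genes, E2F1, E2F7, E2F8 and RBL1 among them, are known E2F targets themselves.

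Promoter sequences are shown first because E2F control of E2F genes acts there, and because they set members with E2F words apart from members without them. RefSeq windows (GRCh38.p14) were searched over the 250 bases before the start. A window was found for 8 members. That of RB1 lay 172724 bases from the gene's start in the files and was not used, and E2F5 and E2F8 had none. In each sequence, read 5′ to 3′ on the gene's strand, capitals mark the words TTTCCCGC, TTTCGCGC, TTTGCCGC or TTTGGCGC on either strand.
E2F1 (chr20:33686386-33686635, minus strand): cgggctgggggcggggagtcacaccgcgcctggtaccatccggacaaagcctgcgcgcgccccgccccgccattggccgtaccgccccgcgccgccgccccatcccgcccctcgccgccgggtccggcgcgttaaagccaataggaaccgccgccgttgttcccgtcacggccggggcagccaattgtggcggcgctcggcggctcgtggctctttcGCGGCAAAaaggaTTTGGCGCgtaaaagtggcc
RBL1 (chr20:37095998-37096247, minus strand): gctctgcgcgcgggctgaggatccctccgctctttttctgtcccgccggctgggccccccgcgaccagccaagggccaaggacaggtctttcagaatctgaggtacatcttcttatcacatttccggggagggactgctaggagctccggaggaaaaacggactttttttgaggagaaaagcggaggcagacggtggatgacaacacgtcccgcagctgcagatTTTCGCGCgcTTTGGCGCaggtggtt
E2F2 (chr1:23531234-23531483, minus strand): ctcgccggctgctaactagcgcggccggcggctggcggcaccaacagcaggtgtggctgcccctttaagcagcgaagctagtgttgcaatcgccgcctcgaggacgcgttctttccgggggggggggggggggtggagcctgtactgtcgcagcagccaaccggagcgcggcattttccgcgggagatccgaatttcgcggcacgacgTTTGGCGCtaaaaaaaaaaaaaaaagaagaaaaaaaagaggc
E2F3 (chr6:20401629-20401878, plus strand): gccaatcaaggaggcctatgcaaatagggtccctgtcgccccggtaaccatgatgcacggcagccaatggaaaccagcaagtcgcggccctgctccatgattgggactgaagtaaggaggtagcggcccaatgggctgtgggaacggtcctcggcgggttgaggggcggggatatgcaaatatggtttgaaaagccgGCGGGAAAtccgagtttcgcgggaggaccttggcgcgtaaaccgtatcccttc
E2F7 (chr12:77065570-77065819, minus strand): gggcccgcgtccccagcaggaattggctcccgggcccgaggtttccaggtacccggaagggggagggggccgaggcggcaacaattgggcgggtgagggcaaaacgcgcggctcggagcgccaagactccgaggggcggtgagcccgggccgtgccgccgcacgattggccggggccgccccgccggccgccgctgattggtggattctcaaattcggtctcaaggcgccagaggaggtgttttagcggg
E2F4 (chr16:67191905-67192154, plus strand): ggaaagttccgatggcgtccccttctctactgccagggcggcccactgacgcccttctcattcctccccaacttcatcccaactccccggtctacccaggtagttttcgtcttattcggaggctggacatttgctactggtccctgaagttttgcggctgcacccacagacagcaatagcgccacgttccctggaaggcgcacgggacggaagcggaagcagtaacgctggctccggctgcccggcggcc
The last pair of windows holds no capitals. Of the 7 members with a window within 100 bases of the start in the files, 4 held at least 1 E2F word, namely E2F1, E2F2, E2F3 and RBL1. Such a word was found in 2.79% of all 35116 RefSeq windows of that length. E2F1 and RBL1 held 2 words each, and 0.122% of all windows held 2 or more. The windows behind these shares were not matched for base composition. In E2F1 the words ended 26 and 13 bases before the start, and in RBL1 19 and 9 bases before it. A second E2F3 window, 1708 bases from the start in the files, held none, and the gene counts do not separate transcripts from the E2F3 starts. No E2F word was found in the windows of E2F4, E2F6 and E2F7, which says only that these letters are not there. The word CCAAT, searched on both strands and known as the NF-Y motif, was found 4 times in the window of E2F7, 4 times in that of E2F3 and 3 times in that of E2F1. At least 1 was present in 32.01% of all windows. The CHR words TTTGAA and TTCGAA, known from cell cycle promoters, occurred among these 7 members only in E2F3 (in 14.3% of all windows), and the TEAD core GGAATG only in E2F4 (in 11.9% of all windows). None of these CHR, TEAD and CCAAT words overlapped an E2F word in the windows of the members.

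The libraries held 14580848 to 15245770 counts. The counts of the gomisin G pair differed more than those of the vehicle pair (chi-square per gene 41.7 and 7.63). Log2 values in gomisin G replicate 1 declined with gene length, by 0.096 per doubling of length against the mean of the 4 libraries, while the slopes of the other libraries lay between 0.0084 and 0.064. The part of this slope in the results was not tested beyond the length correction given with the members. The label of an epithelial pancreatic line was checked on 9 duct and epithelial markers. All 9 were tested, with KRT8 at 5941 and SOX9 at 697.6 CPM (counts scaled by effective library size) in vehicle, but KRT7 reached only 0.919 CPM. Of 8 fibroblast markers COL1A2 and LUM had 0 counts in every library. The summed level of the list was 4.82 to 4.90 CPM in vehicle and 8.55 to 12.0 CPM with gomisin G. Only COL1A1 and PDGFRB of the 8 were tested, and both stood higher with gomisin G. COL1A1 stood at 3.17 and 3.56 CPM in vehicle and at 4.62 and 7.31 CPM with gomisin G. PDGFRB stood at 1.45 and 1.34 CPM in vehicle and at 3.93 and 4.35 CPM with gomisin G. Adjusted p-values were 0.189 and 0.0548 in edgeR's quasi-likelihood test. Summed levels were 0.207 to 1.17 CPM for 6 leukocyte and endothelial markers and 0.344 to 0.689 CPM for 6 acinar and islet markers. The part of cells with these markers in the results was not tested.

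Both atypical E2F genes fell with gomisin G, and by the test across all genes these were the only 2 of the 10 members that were called. E2F8 fell to 36.8% and E2F7 to 42.4% of the vehicle level. Over all tested genes 287 were called, at a Benjamini-Hochberg adjusted p below 0.05 in edgeR's quasi-likelihood test. This is 1.83% of genes in either direction, or 0.903% that fell and 0.922% that rose. Of the 10 members 9 had a negative log2 change, as had 49.3% of all tested genes. The median log2 change of the members was -0.65, against 0.0092 for all tested genes. An unadjusted p below 0.05 was found for 6 members, all of them lower, against 20.6% of tested genes in either direction and 9.62% that were lower. In 8 members both treated libraries lay below both controls, against 27.3% of tested genes. In 0 members both lay above, against 26.9% of tested genes. In bulk RNA, fewer cells with a transcript and less of the transcript per cell cannot be told apart.

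**Figure D1:**
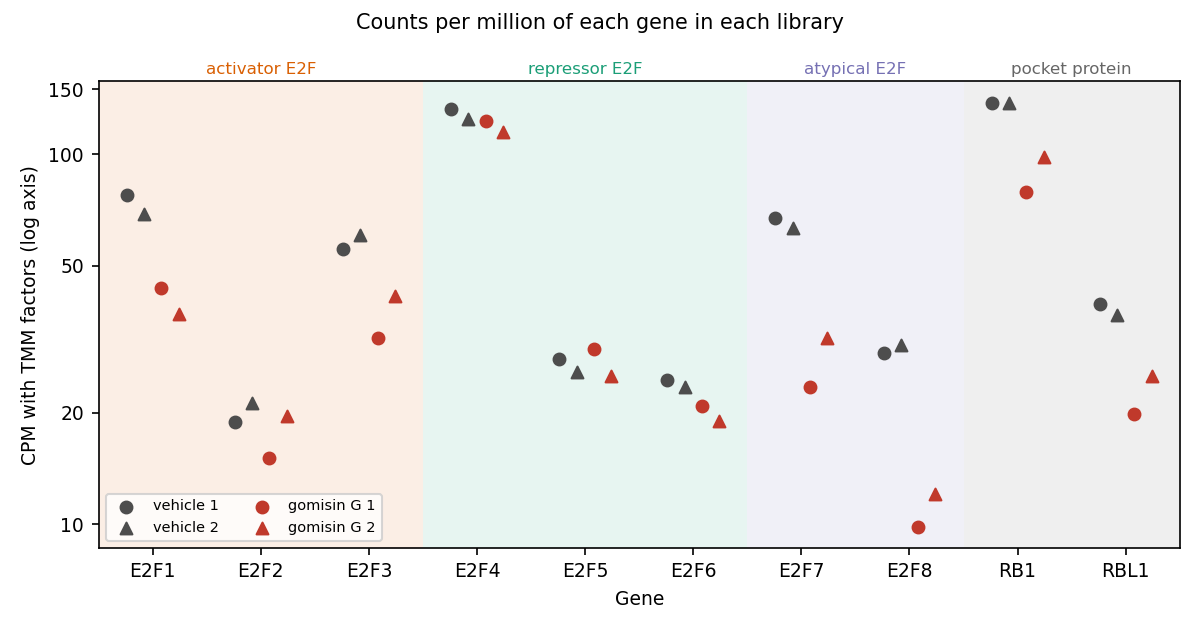
CPM of each gene (log axis) in the 4 libraries, with circles for replicate 1 and triangles for replicate 2 of vehicle (grey) and gomisin G (red). The gomisin G libraries of E2F7 and E2F8 sit well below the vehicle libraries, and those of E2F2 and E2F5 overlap with them.

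Among the atypical genes, E2F8 (chromosome 11, 19224063 to 19241620) stood at 29.1 and 30.6 CPM in the vehicle libraries and at 9.86 and 12.1 CPM in the gomisin G libraries. Both treated libraries were thus far below both controls. They differed from each other by 0.29 on the log2 scale, more than the controls did (0.069). The log2 change was -1.44 (SE 0.19, adjusted p = 0.0193), ranking 51 among all tested genes by p. E2F7 (chromosome 12, 77021247 to 77065580) stood at 67.3 and 63.1 CPM in vehicle and at 23.5 and 31.8 CPM with gomisin G. Its treated libraries also lay clear of the controls, with replicate 1 the lower. The log2 change was -1.23 (SE 0.19, adjusted p = 0.0280). Both genes were called in 13 of 13 alternative analyses, with log2 changes of -1.60 to -1.30 for E2F8 and -1.47 to -1.04 for E2F7. E2F8 shares 7 exonic bases with an opposite-strand gene, and E2F7 shares none.

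Of the activators, 0 of 3 passed the test. E2F1 (chromosome 20, 33675683 to 33686404), the best-known activator, stood at 77.6 and 68.9 CPM in vehicle and at 43.5 and 37.0 CPM with gomisin G. The groups did not overlap, and the treated mean was 54.9% of the vehicle mean. The log2 change of -0.86 (SE 0.17) missed the threshold narrowly, with an adjusted p of 0.0509. E2F1 was called in 6 of 13 alternatives, and not when either control library was left out. With all 4 libraries its adjusted p-values ran from 2.4e-05 (replicate block) to 0.0618 (upper-quartile factors). Of 15721 tested genes the replicate block called 2886 and DESeq2, which also called E2F1, 883. Leaving out single libraries gave log2 changes of -0.99 to -0.75. E2F3 (chromosome 6, 20401906 to 20493715), also needed for entry into S phase in many cells, stood at 55.4 and 60.4 CPM in vehicle and at 31.9 and 41.4 CPM with gomisin G. Its treated libraries were both below the controls but differed from each other more than the controls did. The log2 change was -0.66 (SE 0.18, adjusted p = 0.107). E2F3 was called in 3 of 13 alternatives, and not when either control library was left out. The replicate block was 1 of them (adjusted p = 0.00168), and it called 2886 of 15721 tested genes. Leaving out single libraries gave log2 changes of -0.86 to -0.48. E2F2 (chromosome 1, 23506430 to 23531220), the least abundant activator, stood at 18.9 and 21.2 CPM in vehicle and at 15.1 and 19.6 CPM with gomisin G. Its groups overlapped, since gomisin G replicate 2 was above vehicle replicate 1. The log2 change was -0.21, with a 95% interval of -0.67 to 0.26 (adjusted p = 0.583). Leaving out replicate 1 of the treated pair gave -0.036, leaving out replicate 2 gave -0.41, and E2F2 was called in 0 of 13 alternatives.

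Among the repressor genes, E2F4 (chromosome 16, 67192169 to 67198918), the main partner of p107 and p130, stood at 132.3 and 124.3 CPM in vehicle and at 123.1 and 114.7 CPM with gomisin G. Both treated libraries were below both controls by a small margin. The log2 change of -0.11 had a 95% interval of -0.46 to 0.24 (adjusted p = 0.717). E2F5 (chromosome 8, 85177225 to 85217158), the other pocket-bound repressor, stood at 28.02 and 25.7 CPM in vehicle and at 29.9 and 25.1 CPM with gomisin G. These values interleave. It was the only member with a positive log2 change, 0.033 (95% interval -0.38 to 0.44, adjusted p = 0.936), and the sign turned without vehicle replicate 2 (-0.029) and without gomisin G replicate 1 (-0.098). Of its exonic bases 18.6% are shared with opposite-strand genes, mostly C8orf59, and no source used here gives the use of strand in counting. E2F6 (chromosome 2, 11444375 to 11466177), the Polycomb-linked repressor, stood at 24.6 and 23.4 CPM in vehicle and at 20.9 and 19.0 CPM with gomisin G. Its groups did not overlap, and the log2 change was -0.27 (95% interval -0.67 to 0.13, adjusted p = 0.410).

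Both pocket-protein genes of the group were lower in the treated libraries without passing the test. RB1 (chromosome 13, 48303726 to 48599436), the tumour suppressor that restrains activator E2Fs, stood at 137.5 and 137.9 CPM in vehicle and at 78.9 and 98.4 CPM with gomisin G. The controls were nearly equal, and both treated libraries were far below them. The log2 change was -0.64 (SE 0.17, adjusted p = 0.0946). RBL1 (chromosome 20, 36996349 to 37095995), which encodes p107, stood at 39.4 and 36.7 CPM in vehicle and at 19.9 and 25.2 CPM with gomisin G. Its groups did not overlap, and the log2 change was -0.75 (SE 0.18, adjusted p = 0.0802). RB1 and RBL1 were each called in 5 of 13 alternatives, and not when either control library was left out. DESeq2 was 1 of them, at adjusted p-values of 0.0346 for RB1 and 0.0306 for RBL1. It called 883 of 15721 tested genes, while the replicate block called 2886 and removal of the length trend 803. Leaving out single libraries gave log2 changes of -0.80 to -0.49 for RB1 and -0.93 to -0.60 for RBL1. For comparison RBL2, the gene of p130, stood at 53.8 and 64.7 CPM in vehicle and at 41.1 and 62.3 CPM with gomisin G. Its groups overlapped, and its log2 change of -0.19 (SE 0.22, adjusted p = 0.654) turned to 0.072 without gomisin G replicate 1. When the other treated library was left out it was -0.53. That fit was the only 1 of 13 alternatives to call RBL2, and its spread rests on the vehicle pair. Of its exonic bases 18.2% are shared with opposite-strand genes.

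**Figure D2:**
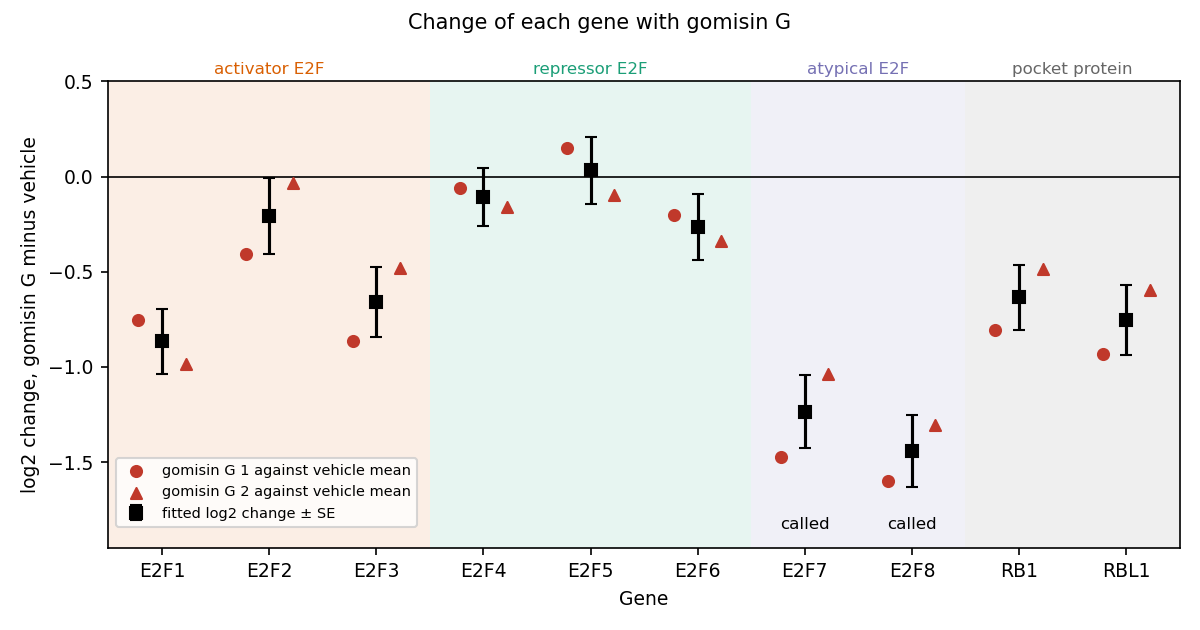
Log2 change of each gene, gomisin G minus vehicle, with black squares for the fitted value ± SE and red symbols for each gomisin G library against the vehicle mean. E2F8 and E2F7 lie lowest at -1.44 and -1.23, and E2F4 and E2F5 lie nearest 0.

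The treated replicates ordered the members differently. Against the vehicle mean, 6 members were lower in gomisin G replicate 1 than in replicate 2, and 4 were higher there. The first set was E2F2, E2F3, E2F7, E2F8, RB1 and RBL1, and the second E2F1, E2F4, E2F5 and E2F6. For E2F1 the log2 values were -0.75 in replicate 1 and -0.99 in replicate 2. For RB1 they were -0.80 and -0.49, and for E2F3 -0.86 and -0.48. With each library's length trend removed, E2F1 moved to -1.03 (adjusted p = 0.00965) and RB1 to -0.57 (adjusted p = 0.0468). Under that setting 5 members were called, E2F1, E2F7, E2F8, RB1 and RBL1, and all had negative changes. It called 803 of all 15721 tested genes, against 287 in the main fit. The median log2 change of the members was -0.49 without gomisin G replicate 1 and -0.78 without replicate 2. It was -0.67 without vehicle replicate 1 and -0.62 without vehicle replicate 2.

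Levels were compared between genes per kilobase of gene model. In vehicle the order of mean level was E2F4 (35.8 CPM per kilobase), E2F1 (29.3), RB1 (21.3), E2F3 (11.2), E2F7 (10.3), E2F8 (7.21), RBL1 (6.39), E2F6 (5.90), E2F5 (4.53) and E2F2 (3.67). The library ranges of neighbours in that order did not overlap in any of the 9 pairs. With gomisin G the order was E2F4 (33.2 CPM per kilobase), E2F1 (16.1), RB1 (13.7), E2F3 (7.10), E2F6 (4.91), E2F5 (4.64), E2F7 (4.39), RBL1 (3.79), E2F2 (3.18) and E2F8 (2.65). Here the ranges overlapped in 6 of 9 neighbouring pairs. E2F8 thus went from above RBL1, E2F6, E2F5 and E2F2 in vehicle to the lowest mean with gomisin G, where its range overlapped with that of E2F2.

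Summed by class, both treated libraries lay below both controls for activators, repressors, atypical genes and pocket proteins alike, with the smallest difference in the repressors. The repressor sum was 47.7 and 44.8 CPM per kilobase in vehicle and 44.6 and 40.9 with gomisin G, or 92.4% of the vehicle mean. Most of the repressor sum was E2F4. The activator sum was 45.2 and 43.1 CPM per kilobase in vehicle and 26.3 and 26.4 with gomisin G, or 59.7%, and most of it was E2F1. The atypical sum was 17.7 and 17.4 CPM per kilobase in vehicle and 6.11 and 7.97 with gomisin G, or 40.1%. The sum of RB1 and RBL1, most of it RB1, came to 63.2% of its vehicle mean. These sums are given as values per library, and differences between classes were not tested.

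**Figure D3:**
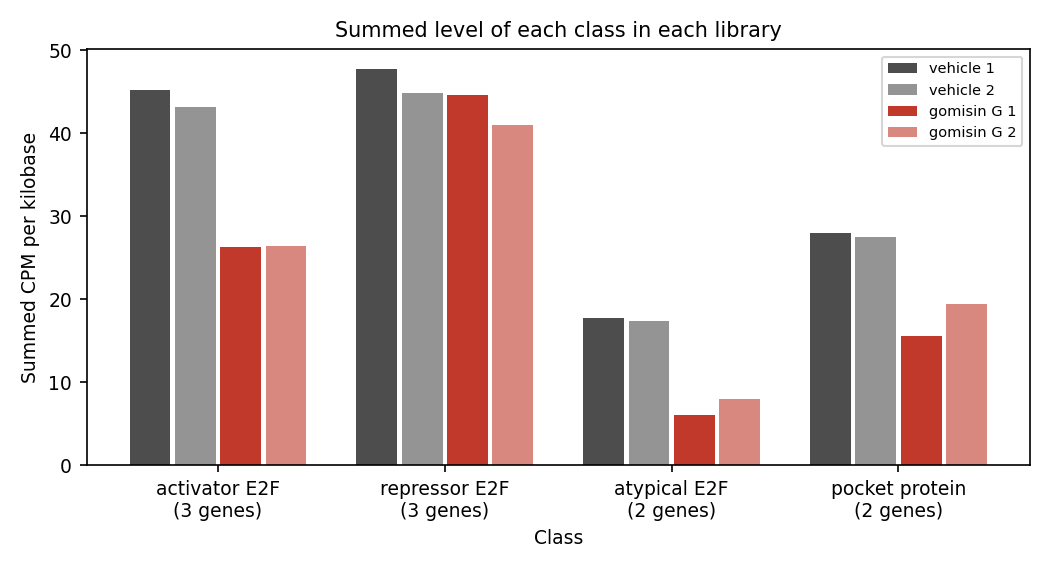
Summed CPM per kilobase of the members of each class in the 4 libraries, as bars from 0, with vehicle in grey and gomisin G in red. The activator bars go from 45.2 and 43.1 to 26.3 and 26.4 and the atypical bars from 17.7 and 17.4 to 6.11 and 7.97, while the repressor bars range from 40.9 to 47.7.

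The balance between classes shifted accordingly in each library. The ratio of activator to repressor sums was 0.947 and 0.962 in vehicle and 0.591 and 0.644 with gomisin G. The ratio of atypical to activator sums was 0.392 and 0.403 in vehicle and 0.232 and 0.302 with gomisin G, so the atypical genes were lower even against the activators. E2F4 made up 33.4% and 33.0% of the summed level of the 8 E2F genes in vehicle and 44.7% and 42.5% with gomisin G, while its own mean level was 92.7% of that in vehicle. The share of E2F1 was 28.03% and 26.1% in vehicle and 22.6% and 19.6% with gomisin G. Mean shares went from 9.57% to 5.77% for E2F7 and from 6.68% to 3.49% for E2F8.

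**Figure D4:**
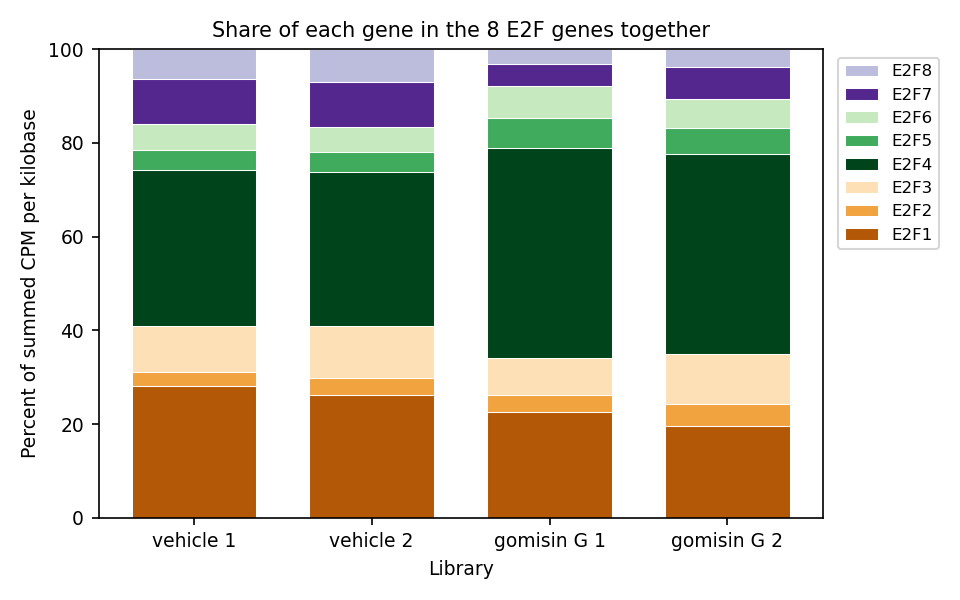
Share of each gene in the summed CPM per kilobase of the 8 E2F genes, in percent, for the 4 libraries. E2F4 takes 33.0 to 33.4% in vehicle and 42.5 to 44.7% with gomisin G, and the segments of E2F1, E2F7 and E2F8 are smaller with gomisin G.

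The genes that work with the members were taken from 6 lists. E2F target genes, which encode proteins for DNA synthesis, were lower across the list. Of 29 tested targets 10 fell and 0 rose, against 0.903% and 0.922% of all tested genes. All 29 had a negative log2 change, against 49.3% of all tested genes, and the median was -0.74. In 28 of the targets both gomisin G libraries lay below both vehicle libraries, against 27.3% of all tested genes. MCM10, a replication initiation factor, had a log2 change of -1.26. The values were -0.93 for the licensing factor CDC6, -0.96 for the origin-binding ORC1, -0.89 for the helicase subunit MCM6, -1.02 for the phosphatase CDC25A and -1.02 for the methylation reader UHRF1, all with adjusted p-values between 0.0179 and 0.0363. The count of called targets depended on single libraries. It was 3 when vehicle replicate 1 was left out, and 1 when vehicle replicate 2 was. It was higher when either treated library was left out, and so was the count over all tested genes. Of the 6 named targets MCM10 was called in all 4 of these fits, and the other 5 were not called when either control library was left out.

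Of the partner genes, TFDP1, which encodes the main DP partner of E2F1 to E2F6, stood at 522.9 and 492.2 CPM in vehicle and at 356.5 and 323.2 CPM with gomisin G (log2 change -0.58, adjusted p = 0.114). TFDP2, the gene of the other DP partner, stood higher with gomisin G, at 58.0 and 55.8 CPM against 43.5 and 45.9 CPM (log2 change 0.35, adjusted p = 0.255). Neither was called by edgeR's quasi-likelihood test. TFDP1 was called in 5 of 13 alternatives, DESeq2 among them (adjusted p = 0.0356), which called 883 of 15721 tested genes. TFDP2 was called in 1, without gomisin G replicate 2 (log2 change 0.38). TFDP3 had 0 counts in every library. The MuvB core, A-MYB, B-MYB and FOXM1 join p107, p130 and E2F4 or follow them on cell cycle promoters. Of 9 tested genes listed for them, 0 were called by edgeR, against 1.83% of all tested genes. An unadjusted p below 0.05 was found for 6, against 20.6% of all tested genes. Of the 9, 8 had a negative log2 change, against 49.3% of all tested genes. LIN37 stood higher with gomisin G, at 3.45 and 2.58 CPM against 1.45 and 1.07 CPM (log2 change 1.25, unadjusted p = 0.010, adjusted p = 0.123). Of its exonic bases 54.0% are shared with other genes. The lowest p-values were those of MYBL1 (log2 change -0.91, adjusted p = 0.0686) and the DNA-binding subunit gene LIN54 (-0.71, adjusted p = 0.0893), which were called in 4 and 3 of 13 alternatives. The list's median was -0.37. Of 10 tested E2F6 partners in its Polycomb complex, 0 were called, against 1.83% of all tested genes. For 1 of them the unadjusted p was below 0.05, against 20.6% of all tested genes, and the median was -0.20. The 2 lowest p-values were those of RYBP (log2 change -0.44, adjusted p = 0.186) and RNF2 (-0.29, adjusted p = 0.355), which were called in 1 and 0 of 13 alternatives.

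Of the kinases and cyclins that phosphorylate pocket proteins, CCND1, the cyclin D1 gene, fell. It stood at 610.9 and 609.3 CPM in vehicle and at 242.7 and 279.8 CPM with gomisin G, a log2 change of -1.22 (SE 0.17, adjusted p = 0.0230). It was the only 1 of 9 tested genes of that list to be called, against 1.83% of all tested genes. An unadjusted p below 0.05 was found for 6 of the 9, against 20.6% of all tested genes. Negative values were found for 8, against 49.3% of all tested genes, and the median was -0.55. The call of CCND1 was lost when either control library was left out, at adjusted p-values of 0.095 and 0.0983, with log2 changes of -1.23 in both fits. Of its exonic bases 10.3% are shared with an opposite-strand gene. Among 6 tested genes of CDK inhibitors, which keep pocket proteins unphosphorylated, CDKN1C, the gene of p57, rose. It stood at 8.68 and 8.26 CPM in vehicle and at 41.2 and 26.9 CPM with gomisin G, a log2 change of 2.01 (SE 0.25, adjusted p = 0.0140). CDKN1C was the only 1 of the 6 to be called, against 1.83% of all tested genes. An unadjusted p below 0.05 was found for 2 of the 6, against 20.6% of all tested genes. A negative log2 change was found for 1, against 49.3% of all tested genes, and the median of the inhibitor list was 0.17. CDKN2A, whose p16 product inhibits the kinases CDK4 and CDK6, had a mean of 0.034 CPM in the control and 0.031 CPM in the treated libraries, under the floor of 3 counts (0.189 to 0.207 CPM).

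**Figure D5:**
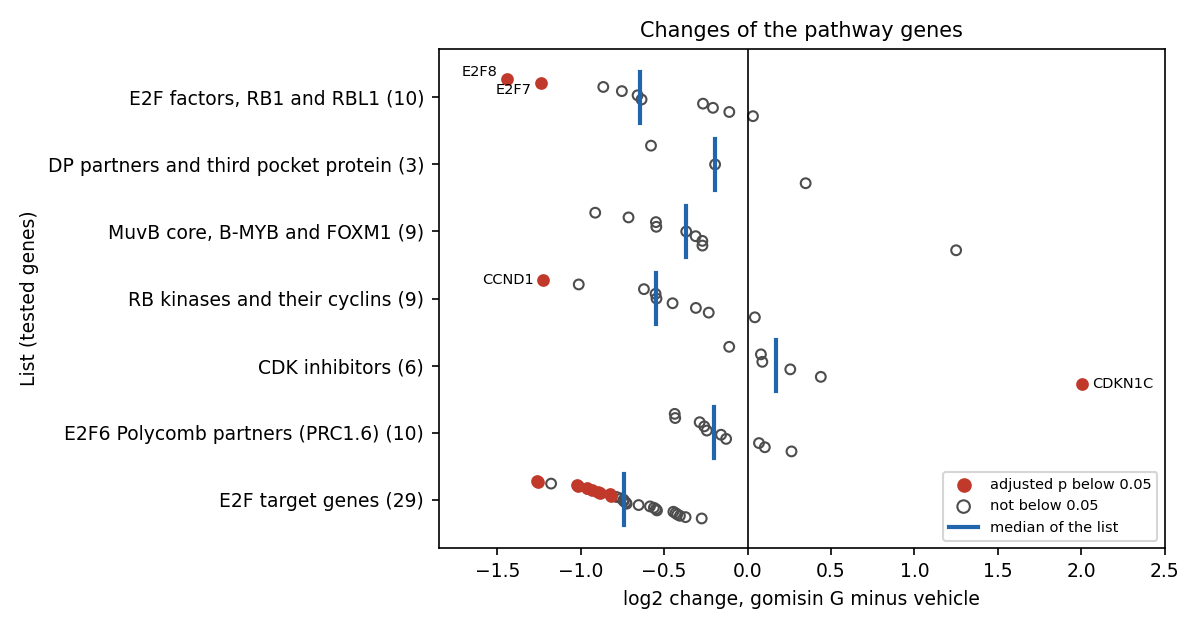
Log2 change of each tested gene in the E2F and RB group and in the 6 lists, with filled red points for an adjusted p below 0.05 and blue bars for the median of each list. The E2F targets all lie below 0, with a median of -0.74, and CDKN1C stands alone at 2.01.

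By the Euclidean distance between centred log2 CPM values over the 4 libraries, among 11526 tested protein-coding genes whose log2 CPM averaged 1 or more, the genes most like E2F1 were SGO2 (distance 0.062), DUSP6 (0.071) and COL4A2 (0.079). Those most like E2F8 were KLHL5 (0.10), SLC7A5 (0.10) and AJUBA (0.11). The log2 changes of the last 3 genes were -1.43, -1.39 and -1.45. Pseudogenes named after members could draw reads from them. The 7 in the annotation held between 0 and 10 counts each over all 4 libraries. The handling of reads matching several places is not given, so a loss of such reads from members was not tested. Of the 10 members 7 share no exonic base with another gene, and RBL1 shares 3.54% of its own with an opposite-strand gene.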

How the data were processed

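RNA-seq was done on 4 libraries of SW1990 cells. Per the labels' protocols, ribosomal RNA was removed before library construction. The authors deposited raw counts of reads per gene. Per the submitters' processing notes, fastp, HISAT2, featureCounts and the build hg38 were used, with no versions. Strand use and the handling of reads matching several places are not given in the sources used here. The whole-series table and the sample tables differed in 0 values, and the other deposited unit used, gene length in bases, is given per the file headers. All 58735 identifiers and coordinates match GENCODE 29 (GRCh38).

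Groups come from sample titles. Gomisin G was compared with vehicle in edgeR 4.0.16 (R 4.3.3). Genes were kept by its default filter, scaled by TMM factors and tested by robust quasi-likelihood on treatment alone, with Benjamini-Hochberg adjustment over 15721 genes and a threshold of 0.05. CPM values use the TMM factors. SEs come from the F statistics and intervals from the moderated degrees of freedom. Floors of 3 counts cover counting error only. The fit was tested on simulated data with 50 changed genes at each size of change. It called 6% of true 1.5-fold changes, 54% of 2-fold, 90% of 4-fold and 92% of 8-fold changes. Among unchanged genes it made 5 calls, and 0 when nothing was changed. These rates describe the simulated counts only. Replicate spread in the real counts was unequal, with a chi-square per gene of 7.63 in vehicle and 41.7 under treatment. Treated replicate 1 also had a length slope of -0.096. Whether the rates hold for these libraries was not tested.

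Alternatives were RLE and upper-quartile factors, no filter or at least 50 counts in 2 libraries, DESeq2 1.42.0, limma 3.58.1 voom, legacy dispersion estimation, a replicate block, removal of each library's length trend (loess), and leaving out each library. Lists were described by counts and medians, without set tests. Named genes were all members, RBL2, the called genes of each list (at most 6, by p) or its 2 lowest p-values, and the 3 genes most like E2F1 and E2F8. Genes outside this rule, named after their values were seen, were TFDP3, CDKN2A, LIN37 and the cell type markers KRT7, KRT8, SOX9, COL1A1, COL1A2, PDGFRB and LUM. The members and lists were chosen with earlier results of these data known. Promoter sequences are from RefSeq.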

Additional observations from a re-analysis of the deposited data

How the results depend on the processing

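E2F7 and E2F8 kept their direction and their call in 13 of 13 alternatives, and E2F2, E2F4 and E2F6 stayed negative and uncalled in 13 of 13 each. The number of members called was 2, and it was 5 with DESeq2, 6 with the replicate block, 5 with the length trend removed, and 2 to 6 when single libraries were left out. Called genes of the 6 lists numbered 12, and 23 with DESeq2, 39 with the replicate block, 26 with the length trend removed, and 2 to 46 when single libraries were left out. Over all tested genes the count was 287, and 883 with DESeq2, 2886 with the replicate block, 803 with the length trend removed, and 135 to 6322 when single libraries were left out. Fits without a gomisin G library rest their spread on the vehicle pair, with the lone library assumed to vary alike. Same-numbered libraries share only a number in the labels. Their deviations from the group means correlated at 0.21 over genes, and the replicate block is given here as an alternative only. The activator sum had a log2 change of -0.74, and -0.69 with upper-quartile factors, -0.58 as a mean of log2 values, and -0.78 to -0.71 without single libraries. The atypical sum had -1.32, and -1.52 to -1.14 without single libraries. Without single libraries E2F5 ranged from -0.098 to 0.15, with -0.029 without vehicle replicate 2, and RBL2 from -0.53 to 0.072. With 2 libraries per group, the 95% interval of E2F2, which was not called, ran from -0.67 to 0.26.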
